A study of Mus musculus with 3 samples.

Results

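The genes described here are 10 that encode immune checkpoint ligands and immunosuppressive enzymes: Cd274, Pdcd1lg2, Cd276, Vsir, Lgals9, Cd47, Pvr, Entpd1, Nt5e and Arg1. They were listed by name, not chosen by a threshold on their values, out of the 54532 genes in each of the study's 3 expression files. The study sequenced RNA from cells of the mouse dura mater, which is the outermost of the meninges, and by its title concerns lymphatic vessels of the meninges. All mice had been inoculated with 4T1-DM cells to model metastasis to the dura (4T1 being a mammary carcinoma line of mouse origin), so no group was free of tumour inoculation. The treatments were PBS, ZOL and ZOL+Ang2, which the labels do not spell out, and the dorsal dura was taken on day 12 after inoculation. Cells labelled CD45-CD31+PDPN+ were pooled from 6 mice per group, and each pool gave 1 library. The sources used here do not give strain, age, doses or the way the cells were selected. With 1 library per group no test was possible, and each value below describes a pool and not the spread between mice.

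Checkpoint ligands are surface or secreted proteins that restrain T cells, NK cells or phagocytes through inhibitory receptors on those cells. PD-L1 (Cd274) and PD-L2 (Pdcd1lg2) bind PD-1, CD47 binds SIRPα, and interferon gamma is a classical inducer of PD-L1. The suppressive enzymes act on small molecules: CD39 (Entpd1) and CD73 (Nt5e) in turn convert extracellular ATP into immunosuppressive adenosine, and arginase (Arg1) consumes arginine that T cells need. Lymphatic endothelial cells are known to present antigen and to display PD-L1.

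Levels are given in 2 scales. Reads recovered from the deposited values, scaled to library size (CPM), serve to compare a gene between libraries, and RPKM, which also divides by gene length, serves to compare genes within a library. The PBS library was shallow and stood apart from the others. It held 1675532 recovered reads, compared with 16586760 for ZOL and 9204901 for ZOL+Ang2, and a gene with 0 reads could still have had up to 1.61, 0.191 and 0.342 CPM in those libraries by counting error (3 reads). The share of mitochondrial genes in the reads was 12.1%, 1.52% and 1.19% in the same order. The repeat-containing model Gm10800 held 16.5%, 0.885% and 2.91% of reads, and chemoreceptor genes held 2.87%, 0.0508% and 0.150%. The transcripts of the gate did not follow the label evenly. Pecam1 (CD31) had 2 reads in PBS, against 475 CPM after ZOL and 177 CPM after ZOL+Ang2. Pdpn stood at 18.8, 67.5 and 171 CPM, and Ptprc (CD45, which the label excludes) at 156, 25.1 and 76.1 CPM. Of the defining lymphatic genes Lyve1 had 0 reads in each library, and Prox1 had 2 reads in PBS and 0 in the others. Most of the 9 listed lymphatic markers, among them Pdpn, did have reads: 7 in PBS, 7 after ZOL and 6 after ZOL+Ang2. Together they came to 387 CPM in PBS, 323 after ZOL and 310 after ZOL+Ang2. All results that set ZOL or ZOL+Ang2 against PBS rest on this shallow library, while the comparison of ZOL+Ang2 with ZOL uses it only in the filter on low levels and the scaling. With PBS left out of both, 8 of the 10 genes passed the filter. Of these, 1 was at least 2-fold higher in ZOL+Ang2 than in ZOL (Arg1) and 1 was lower (Pvr), beside 1803 and 2636 of 9054 genes.

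The promoters of 3 genes are shown, which differ in detection and level. Cd274, like Cd276, had reads only in the treated libraries. Pdcd1lg2, the neighbour of Cd274, had none anywhere, and Lgals9 was the most abundant per length in each library. Each run is the 250 bases before the RefSeq start (GRCm38.p6), written in the direction of transcription. Capitals mark a GC box (GGGCGG) in Cd274, a STAT6-type motif (TTC and GAA with 4 bases between them) in Pdcd1lg2 and an ISRE-type motif, the kind bound by interferon regulatory factors (GAAA and GAAA with 2 bases between them, read here on the opposite strand), in Lgals9.
Cd274, chr19:29367188-29367437, plus strand: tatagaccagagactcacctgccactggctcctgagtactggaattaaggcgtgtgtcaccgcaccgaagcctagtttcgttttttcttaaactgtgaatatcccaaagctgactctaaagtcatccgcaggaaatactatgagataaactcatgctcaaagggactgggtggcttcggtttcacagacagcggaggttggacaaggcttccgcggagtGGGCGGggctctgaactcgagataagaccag
Pdcd1lg2, chr19:29410669-29410918, plus strand: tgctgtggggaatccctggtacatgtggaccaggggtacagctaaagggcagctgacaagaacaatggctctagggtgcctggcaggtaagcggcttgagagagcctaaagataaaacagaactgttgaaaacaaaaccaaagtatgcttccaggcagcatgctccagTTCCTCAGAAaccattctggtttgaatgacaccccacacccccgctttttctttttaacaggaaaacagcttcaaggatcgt
Lgals9, chr11:78984925-78985174, minus strand: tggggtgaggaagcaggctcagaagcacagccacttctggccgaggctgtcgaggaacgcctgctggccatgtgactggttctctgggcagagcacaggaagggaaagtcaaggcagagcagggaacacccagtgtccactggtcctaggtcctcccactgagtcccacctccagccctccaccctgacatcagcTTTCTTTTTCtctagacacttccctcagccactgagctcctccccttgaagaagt
The windows differed in base composition. Over the full 300 bases of a table entry (250 before the start and 50 from it on), Cd274 held 15 CG pairs, Lgals9 4 and Pdcd1lg2 3, beside a median of 7 over the 32851 promoters in the table. Entries existed for 8 of the 10 genes, and the highest count among them was the 39 CG pairs of Cd276.

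Both strands of these windows were searched for short motifs. The ISRE-type motif was in 3.44% of all promoters and, of the 10 genes, only in Lgals9, where it spans positions -55 to -46 (the start base being 0) and occurs again after the start. The STAT6-type motif was in 6.95% of promoters and, of the 10 genes, only in Pdcd1lg2, at -82 to -73. The GC box was in 35.7% of promoters and in those of Cd274, Cd276, Cd47, Nt5e and Vsir, at -31 to -26 in Cd274. The HIF core ACGTG was in 19.6% of promoters and in those of Cd274 and Cd47. The AP-1 motif (TGANTCA, in 7.81% of promoters) and the TATA box (TATAAA, 13.6%) were in none of the windows of the 8 genes. A match is a run of letters and not a measured binding site.

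The set was led by 2 ligand genes in the treated libraries. Lgals9 stood at 113 RPKM in both ZOL and ZOL+Ang2 and at 73.5 in PBS, and 96.8%, 96.4% and 89.8% of the genes that passed the filter on low levels (10942 genes whose mean was 10 CPM or more) had a lower RPKM in the same library. Cd47 came next in ZOL at 30.5 RPKM and in ZOL+Ang2 at 43.4. In PBS the second place was held by Vsir at 68.5 RPKM, whose interval overlapped that of Lgals9. In ZOL the order below Cd47 was Nt5e (25.4 RPKM), Entpd1 (16.3), Cd276 (9.29), Cd274 (6.17), Pvr (2.88) and Vsir (0.160), with no overlap of 95% counting intervals between neighbours. In ZOL+Ang2, Arg1 entered the order at 40.7 RPKM with an interval that overlapped that of Cd47. Nt5e (19.3), Cd276 (14.6), Entpd1 (10.1) and Cd274 (5.13) followed without overlap. In PBS, Cd47 (35.1) and Entpd1 (16.6) lay below Vsir, and Nt5e (1.04), Arg1 (0.801) and Pvr (0.146) had too few reads to be ordered.

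**Figure D1:**
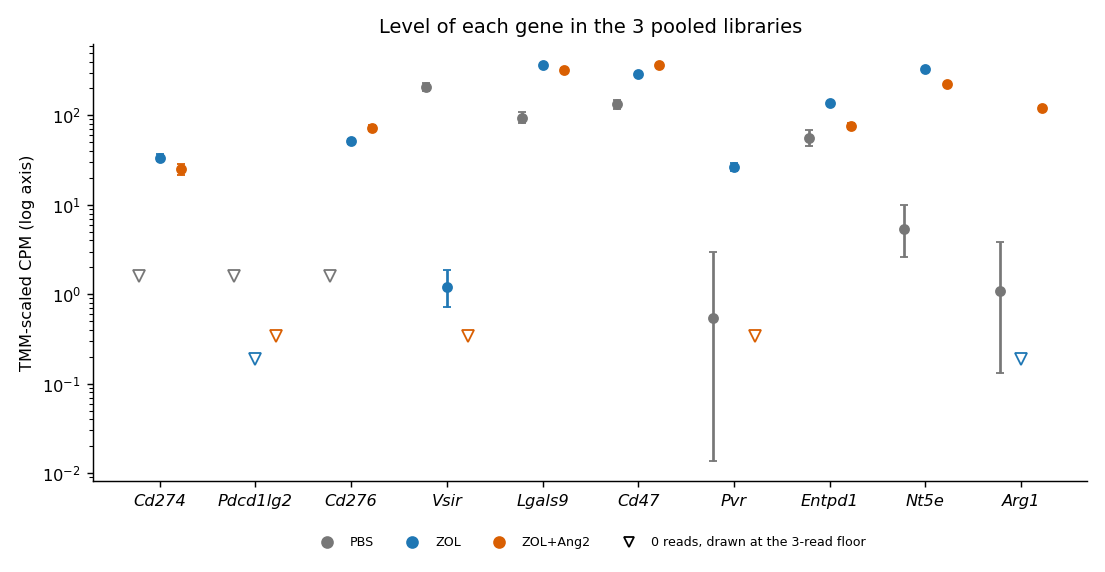
TMM-scaled CPM (log axis) of the 10 genes in the PBS, ZOL and ZOL+Ang2 libraries, 1 pool of 6 mice each. Bars are exact 95% counting intervals and open triangles mark 0 reads, drawn at the level of 3 reads. Cd274 and Cd276 had reads only in the treated libraries, Vsir was highest in PBS at 207 CPM, and Arg1 reached 121 CPM in ZOL+Ang2 alone.

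Between libraries, the first question was how cells from ZOL-treated mice differed from those given PBS. Of the 8 genes that passed the filter (Pdcd1lg2 and Pvr did not), 6 were at least 2-fold higher in ZOL than in PBS on the log2 scale of CPM plus a prior of 5 CPM: Cd274, Cd276, Lgals9, Cd47, Entpd1 and Nt5e. Vsir was the 1 gene at least 2-fold lower. Of all 10942 genes, 49.2% were that much higher and 29.4% that much lower, so the count of 6 has to be read against a library pair in which most genes differed. Higher genes made up 62.6% of all genes past 2-fold, and 39.9% to 58.2% under the other scalings of the libraries. The median of all genes lay at 0.94 log2 in this comparison, and relative to it 3 of the 8 were at least 2-fold higher (Cd274, Cd276 and Nt5e), as were 38.0% of all genes. Relative to the median, Vsir and Arg1 were at least 2-fold lower, although Arg1 had 2 and 0 reads in the pair. Markers of some other cells differed in the same direction as the 6 higher genes, and those of others in the opposite direction. The macrophage and monocyte, neutrophil, dendritic cell, T and NK cell, B cell and erythroid sums were lower in ZOL than in PBS. The lymphatic endothelial sum was slightly lower (323 against 387 CPM), with 2 of its genes at least 2-fold higher and 2 lower. The fibroblast sum (1020 against 372 CPM) and the pan-endothelial sum (5502 against 4417 CPM) were higher in ZOL. The summed level of 9 epithelial and carcinoma markers was 641 CPM in PBS, 5596 after ZOL and 5672 after ZOL+Ang2, with 6, 8 and 8 of them above 0, and that of 7 mural cell markers was 2.69, 838 and 360 CPM, with 1, 5 and 5 above 0. Krt5 was at 0 reads in each library, and the part of these cells in the levels of the 10 genes was not tested. Vsir passed the filter through PBS alone and Arg1 through ZOL+Ang2 alone, so each had to differ in some comparison. Cd274, Cd276 and Nt5e (0, 0 and 5.38 CPM in PBS) passed it through the treated libraries alone. For them a higher level in at least 1 treated library than in PBS was thus built into passing.

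Few of the 8 genes differed by that much between the treated libraries. In ZOL+Ang2 against ZOL, Arg1 was at least 2-fold higher and no gene that passed the filter was 2-fold lower, while 16.2% of all genes were 2-fold higher and 24.8% lower (median of all genes -0.02). In ZOL+Ang2 against PBS, which shares a library with each of the other comparisons, 6 genes were at least 2-fold higher (Cd274, Cd276, Lgals9, Cd47, Nt5e and Arg1) and Vsir was lower, beside 44.2% and 33.1% of all genes (median 0.48). Higher genes were 57.1% of those past 2-fold there, and 39.0% to 53.5% under the other scalings. Relative to that median Cd47 no longer passed 2-fold, at 0.94 log2. Over the 8 genes, the median log2 ratio was 1.55, -0.24 and 2.15 in these 3 comparisons, and with genes at 0 reads set at their bounds it was 1.55, -0.27 and 2.83.

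**Figure D2:**
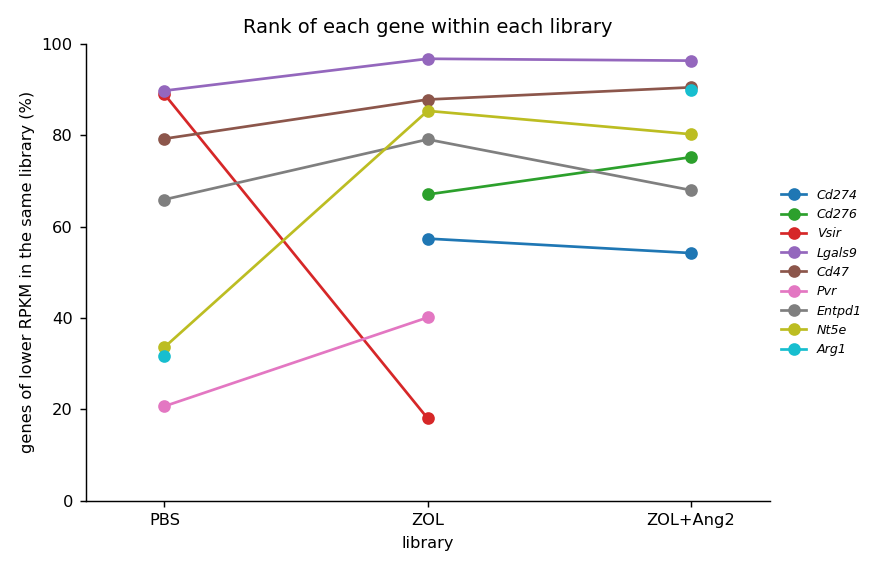
Percent of the 10942 filtered genes with a lower RPKM than each gene in the same library, for the PBS, ZOL and ZOL+Ang2 libraries on the horizontal axis. Lines join the values of a gene between neighbouring libraries where it had reads, and Pdcd1lg2 had none. Lgals9 was the highest in each library, from 89.8% in PBS to 96.8% in ZOL, and Vsir went from 89.0% in PBS to 18.0% in ZOL.

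Among the PD-1 ligands, Cd274 (ENSMUSG00000016496; mm10 chromosome 19, 29367455 to 29388095, plus strand) had 0 reads in PBS, 529 after ZOL and 218 after ZOL+Ang2. These are 0, 33.7 and 24.9 CPM. It was present in both treated pools and not detected in PBS. The ZOL level was at least 20.9-fold higher than PBS allowed, and the ZOL+Ang2 level at least 15.4-fold higher. At the depth of PBS, 33.7 CPM corresponds to 62.6 reads. Zeros were common in that library: of 2509 genes at 20 to 100 CPM in both treated libraries, 27.3% had 0 reads in PBS. Between the treated pools Cd274 was 1.36-fold lower in ZOL+Ang2 (95% counting interval 1.16 to 1.59), which is less than 2-fold. The exons of Cd274 overlap those of a gene named AC119228.1, and the sources used here do not say whether the counting used strand.

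Pdcd1lg2 (ENSMUSG00000016498; chromosome 19, 29410919 to 29471161, plus strand) starts 22823 bases beyond the end of Cd274 on the same strand. It had 0 reads in each of the 3 libraries. In ZOL this allows at most 0.191 CPM, where Cd274 stood at 33.7, so these adjacent genes for the ligands of PD-1 differed in detection in both treated pools.

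Cd276 encodes B7-H3, a member of the B7 family that is often abundant on tumour cells and tumour vessels. It (ENSMUSG00000035914; chromosome 9, 58524298 to 58555437, minus strand) had 0 reads in PBS, 805 after ZOL and 628 after ZOL+Ang2, or 0, 51.3 and 71.6 CPM. As for Cd274, both treated pools had it and PBS did not. The fold against PBS was at least 31.8 in ZOL and at least 44.4 in ZOL+Ang2, and the ZOL level corresponds to 95.3 reads at the depth of PBS. From ZOL to ZOL+Ang2, Cd276 went the other way from Cd274 and was 1.40-fold higher (1.26 to 1.55). The ratio of Cd276 to Cd274 within a library, which no scaling between libraries can move, was 1.51 in ZOL (1.35 to 1.68, RPKM) and 2.85 in ZOL+Ang2 (2.44 to 3.34), and these intervals did not overlap. The exons of Cd276 overlap those of Gm10657, which had 0 reads in each library.

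Vsir encodes VISTA, a B7-like protein found mainly on myeloid cells and also acting on T cells. It (ENSMUSG00000020101; chromosome 10, 60346851 to 60372684, plus strand) had 385 reads in PBS, 19 after ZOL and 0 after ZOL+Ang2, or 207, 1.21 and 0 CPM. It was the only gene of the set that was highest in PBS in CPM. In the deposited RPKM Entpd1 was also highest there, at 16.6 against 16.3 in ZOL and 10.1 in ZOL+Ang2. Vsir was 171-fold lower in ZOL than in PBS (108 to 287) and at least 606-fold lower in ZOL+Ang2. At the PBS level, 3253 reads would have been found in ZOL and 1817 in ZOL+Ang2. Of 517 genes at 150 to 300 CPM in PBS, 10.8% had 0 reads in ZOL+Ang2, so Vsir was not alone in this. The ZOL+Ang2 level was at least 3.54-fold lower than that of ZOL, but both lie close to the floor. Vsir lies within Cdh23, which is on the opposite strand and had 1, 0 and 35 reads, so the PBS reads of Vsir had no counterpart in Cdh23.

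Markers of some other cells were highest in PBS, as Vsir was, and those of others were not. In PBS the summed level of 12 macrophage and monocyte markers was 1083 CPM, against 259 in ZOL and 2015 in ZOL+Ang2. Reads were found for 8, 7 and 10 of these 12 genes, and Cd68 and Itgam were at 0 in each library. The sum of 8 neutrophil markers was 375, 30.4 and 782 CPM, so both of these myeloid sums were highest in ZOL+Ang2, where Vsir had 0 reads. The summed levels of 7 dendritic cell markers (358, 38.0 and 8.21 CPM), 10 T and NK cell markers (149, 0.956 and 0) and 4 B cell markers (234, 0 and 0) were highest in PBS. There 6 of the 7, 6 of the 10 and 2 of the 4 genes had reads, and Cd3d and Cd8a were at 0. Of 128 listed genes compared over the 3 libraries, the B cell gene Cd79a had the profile closest to that of Vsir (distance 0.34 in centred log2 CPM). The part of these cells in the Vsir reads was not tested. In such pooled RNA, fewer cells of a type and less RNA per cell cannot be told apart.

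Lgals9 encodes galectin-9, a secreted lectin that can bind TIM-3 (Havcr2) on T cells. It (ENSMUSG00000001123; chromosome 11, 78962974 to 78984946, minus strand) had 176 reads in PBS, 5721 after ZOL and 2838 after ZOL+Ang2, or 94.7, 364 and 324 CPM. Both treated pools lay above PBS and close to each other. The gene was 3.85-fold higher in ZOL than in PBS (3.31 to 4.50) and 3.42-fold higher in ZOL+Ang2 (2.93 to 4.00). Under the 5 scalings compared, the log2 ratio to PBS ranged from 0.61 to 1.89 in ZOL and from 0.61 to 1.72 in ZOL+Ang2. Both were under 2-fold with RPKM as deposited. Relative to the median of all genes the ZOL difference was 0.95 log2, just under 2-fold. From ZOL to ZOL+Ang2 it was 1.13-fold lower (1.08 to 1.18), but this small difference changed sign with the scaling of the libraries, between -0.17 and 0.02 log2. Jak2, a kinase of interferon receptors, had the closest profile among the listed genes (distance 0.07), at 23.1, 103 and 85.1 CPM.

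Cd47, the signal that keeps phagocytes from engulfing a cell, (ENSMUSG00000055447; chromosome 16, 49800533 to 49915010, plus strand) had 247 reads in PBS, 4527 after ZOL and 3195 after ZOL+Ang2. Its levels were 133, 288 and 364 CPM. It was lowest in PBS and highest in ZOL+Ang2. Cd47 was 2.17-fold higher in ZOL than in PBS (1.91 to 2.48), but relative to the median of all genes only 0.15 log2 higher, and with the deposited RPKM taken as they are it was 0.20 log2 lower. It was 1.26-fold higher in ZOL+Ang2 than in ZOL (1.21 to 1.32), and this direction was the same under the 5 scalings compared. Within each library, Cd47 relative to Lgals9 came to 0.478 in PBS (0.392 to 0.583), 0.269 in ZOL (0.259 to 0.280) and 0.383 in ZOL+Ang2 (0.364 to 0.403), so Cd47 was lowest relative to Lgals9 in ZOL.

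Pvr encodes the poliovirus receptor CD155, which binds the inhibitory receptor TIGIT and the activating receptor CD226. It (ENSMUSG00000040511; chromosome 7, 19903578 to 19921160, minus strand) had 1 read in PBS, 418 after ZOL and 0 after ZOL+Ang2, or 0.538, 26.6 and 0 CPM. It was present in ZOL and at or near 0 in the other pools. With a mean of 9.06 CPM it just missed the filter and is not in the counts above. The ZOL level was 49.5-fold that of PBS with a wide interval (8.83 to 1959) and at least 77.8-fold that of ZOL+Ang2. At the ZOL level 234 reads would have been found in ZOL+Ang2. Of 3205 genes at 20 to 50 CPM in ZOL, 17.1% had 0 reads in ZOL+Ang2, so such losses were not rare between these pools.

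**Figure D3:**
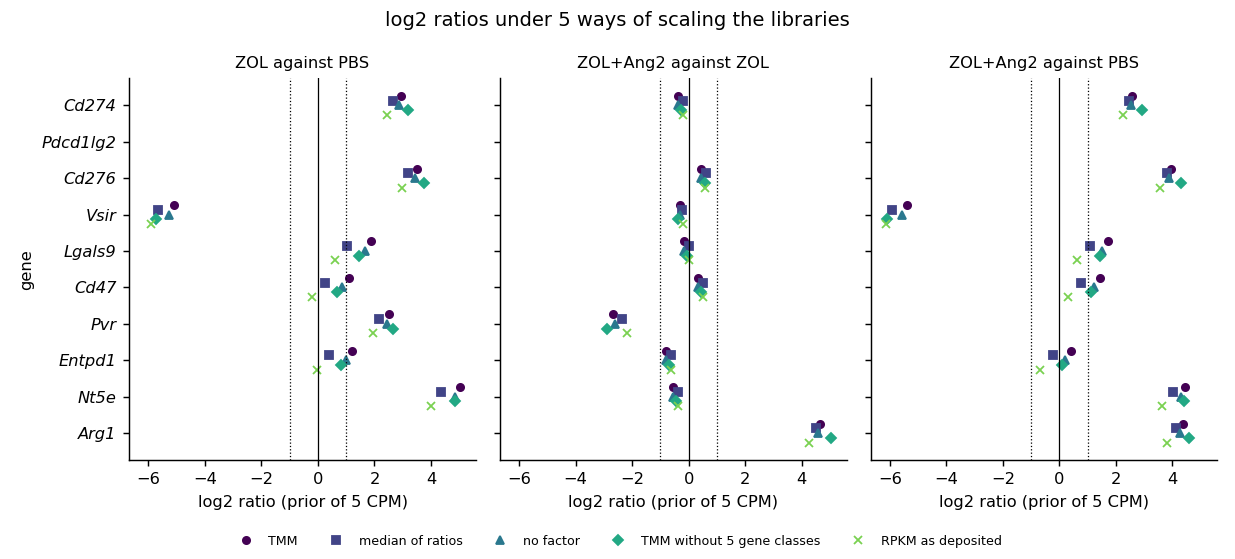
log2 ratio (CPM plus a prior of 5 CPM) of each gene in the 3 comparisons, under 5 ways of scaling the libraries, shown by symbol. Solid lines mark no difference and dotted lines 2-fold, and genes at or under 3 reads in both libraries of a comparison are not drawn. The symbols lie to 1 side of 0 except for Cd47 and Entpd1 in ZOL against PBS, Lgals9 in ZOL+Ang2 against ZOL and Entpd1 in ZOL+Ang2 against PBS.

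Among the enzymes, Entpd1 (CD39, which degrades ATP and ADP to AMP and is typical of endothelium) had 104 reads in PBS, 2151 after ZOL and 662 after ZOL+Ang2. The gene (ENSMUSG00000048120; chromosome 19, 40612366 to 40741602, plus strand) stood at 56.0, 137 and 75.5 CPM and was highest in ZOL. It was 2.45-fold higher in ZOL than in PBS (2.01 to 3.01), 0.28 log2 relative to the median of all genes, and the sign changed to -0.03 log2 with RPKM as deposited. In ZOL+Ang2 it was 1.82-fold lower than in ZOL (1.66 to 1.98), the largest ratio among the genes with reads in both treated libraries. The summed level of 14 pan-endothelial markers was also lower in ZOL+Ang2, at 1799 CPM against 5502 in ZOL and 4417 in PBS, and the part of this in the Entpd1 level was not tested. Relative to the endothelial cadherin Cdh5, Entpd1 came to 1.83 in ZOL (1.69 to 1.98) and 1.54 in ZOL+Ang2 (1.35 to 1.77), with overlapping intervals, and to 3.13 in PBS (2.01 to 5.06). Relative to Pecam1 it went the other way, at 0.322 in ZOL (0.307 to 0.338) and 0.475 in ZOL+Ang2 (0.433 to 0.520), without overlap. As a percent of the pan-endothelial sum in CPM, Entpd1 came to 1.27, 2.49 and 4.20 in PBS, ZOL and ZOL+Ang2. The answer thus depended on the endothelial gene chosen.

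Nt5e (CD73, which turns AMP into adenosine; ENSMUSG00000032420; chromosome 9, 88327197 to 88372092, plus strand) had 10 reads in PBS, 5178 after ZOL and 1945 after ZOL+Ang2, or 5.38, 330 and 222 CPM. The treated pools were far above PBS. The ZOL level was 61.3-fold that of PBS (33.3 to 128) and the ZOL+Ang2 level 41.2-fold (22.4 to 86.1), and the former was 4.07 log2 above PBS relative to the median of all genes. From ZOL to ZOL+Ang2 Nt5e was 1.49-fold lower (1.41 to 1.57). CD39 and CD73 act in sequence, and the balance of their transcripts differed between libraries. Nt5e relative to Entpd1 was 0.0624 in PBS (0.0291 to 0.119), 1.56 in ZOL (1.48 to 1.64) and 1.91 in ZOL+Ang2 (1.74 to 2.08). Per length, Entpd1 thus exceeded Nt5e in PBS and Nt5e exceeded Entpd1 in both treated pools.

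Arg1 (ENSMUSG00000019987; chromosome 10, 24915221 to 24927484, minus strand) had 2 reads in PBS, 0 after ZOL and 1063 after ZOL+Ang2, or 1.08, 0 and 121 CPM. It was abundant in the ZOL+Ang2 pool and at or near 0 in the other pools. Its level there was at least 634-fold that of ZOL, where 1903 reads would have been found at the same level, and 113-fold that of PBS (31.1 to 931). Of 1178 genes at 100 to 200 CPM in ZOL+Ang2, 0.679% (8 genes) had 0 reads in ZOL. Arg1 passed the filter through ZOL+Ang2 alone and the band was chosen after its level was seen, so this share is a description and no test. Arginase is typical of some macrophages and neutrophils and of liver. The summed levels of macrophage and monocyte markers (259 CPM after ZOL and 2015 after ZOL+Ang2), of 8 neutrophil markers (30.4 and 782), of 9 fibroblast markers (1020 and 11377) and of 7 erythroid markers (7.20 and 25180) were also higher in ZOL+Ang2. Reads were found in ZOL+Ang2 for 10 of 12, 8 of 8, 9 of 9 and 7 of 7 of these genes, and in ZOL for 7, 3, 9 and 5. Among listed genes the collagen gene Col3a1 (distance 0.27) and the neutrophil gene Camp (0.29) had the profiles closest to that of Arg1. The part of these cells in the Arg1 reads was not tested.

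**Figure D4:**
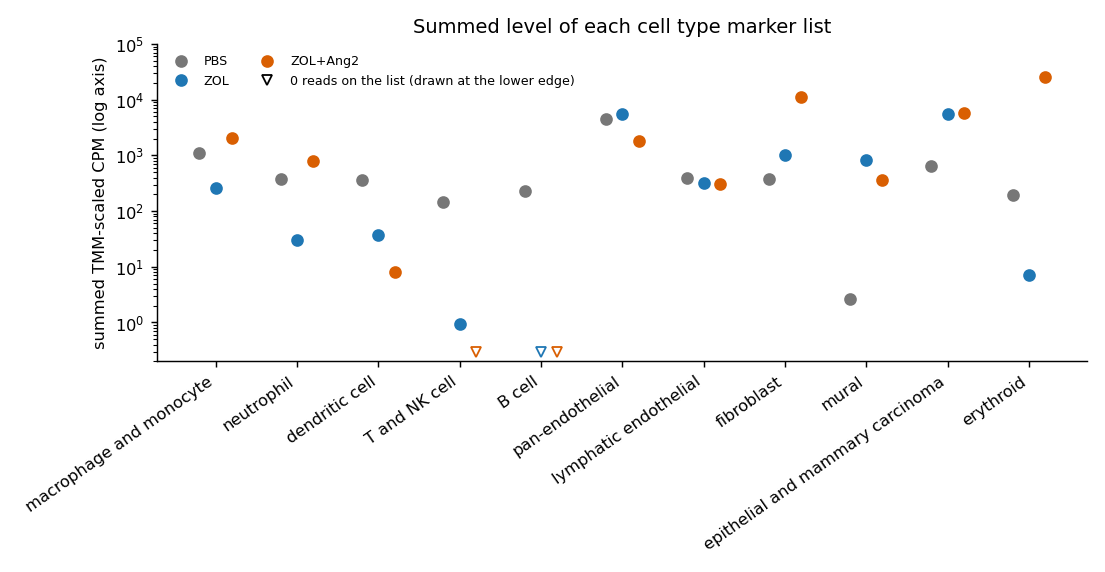
Summed TMM-scaled CPM (log axis) of 11 lists of cell type markers in the PBS, ZOL and ZOL+Ang2 libraries. Triangles at the lower edge stand for lists without reads. The macrophage, neutrophil, fibroblast and erythroid sums were higher in ZOL+Ang2 than in ZOL, while T and NK cell and B cell sums were close to or at 0 in both treated libraries and 149 and 234 CPM in PBS.

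The profiles closest to the other genes of the set were those of Tnfsf9 for Cd274 (distance 0.28), Ifngr2 for Cd276 (0.15), Cd14 for Cd47 (0.33), Aldh1a2 for Entpd1 (0.20) and Nfkb1 for Nt5e (0.28), each out of 128 listed genes over 3 libraries. With 3 points such likeness describes the shared order of the libraries and no more.

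Related genes were counted in 7 lists, in which several genes passed the filter through 1 library alone and so had to differ in some comparison. Among those named below these were Cd226 (PBS), Ptgs2, Asl, Oat and Ifngr1 (ZOL) and Adora2b, Fgl2 and Alpl (ZOL+Ang2). Of the receptors through which these proteins act, 3 of 12 listed genes passed the filter. Cd226 stood at 135, 0 and 5.02 CPM after PBS, ZOL and ZOL+Ang2, Tigit at 22.6, 11.0 and 18.6, and Adora2b, a receptor of adenosine, at 0, 0 and 37.1. Adora2b was thus detected in ZOL+Ang2 only, at least 194-fold above ZOL. In ZOL against PBS none of the 3 was 2-fold higher and Cd226 was lower, beside 49.2% and 29.4% of all genes. In ZOL+Ang2 against ZOL both Cd226 and Adora2b were higher and none was lower, beside 16.2% and 24.8% of all genes. Cd226 passed 2-fold there only narrowly (1.00 log2, 0.81 to 1.21 under the 5 scalings), and the count of 2 came to 1 with median-of-ratios factors or no factor and to 0 with RPKM as deposited.

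Other co-signalling ligands were a mixed group, with 5 of 9 measured genes (20 listed) at least 2-fold higher in ZOL than in PBS and 2 lower, beside 49.2% and 29.4% of all genes. The median log2 ratio was 1.65, beside 0.94 for all genes. The balance depended on the scaling, with 5 higher and 4 lower of 10 (median 0.60) with median-of-ratios factors and 3 higher and 4 lower of 9 with RPKM as deposited. Lgals1, another galectin, was the most abundant at 756, 7390 and 7138 CPM after PBS, ZOL and ZOL+Ang2. Cd24a, a ligand of an inhibitory Siglec on macrophages, had 2 reads in PBS and stood at 332 and 394 CPM in ZOL and ZOL+Ang2. Nectin3 went the other way, at 165, 4.27 and 28.7 CPM. In ZOL+Ang2 against ZOL, 2 of the 9 were higher, among them Fgl2 (0 and 34.4 CPM), and Cd200 was lower at 55.2 against 209 CPM (3.79-fold, 3.44 to 4.18). Of all genes, 16.2% were higher and 24.8% lower there.

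Regulators of PD-L1 induction and stability, both positive and negative, were mostly higher in ZOL than in PBS. Of 15 listed genes 14 passed the filter, and 13 were at least 2-fold higher in ZOL than in PBS with none lower, against 49.2% of all genes. Their median was 3.48 log2 (4.06 with genes at 0 set at their bounds), and 9 to 13 were higher under the 5 scalings. Rela, a subunit of NF-κB, had 0 reads in PBS and stood at 168 CPM after ZOL and 62.0 after ZOL+Ang2. Stat3 stood at 2.15, 124 and 345 CPM, and Irf1, the interferon response factor, at 173, 228 and 51.9. When Ang2 was added to ZOL, 2 genes were higher (Stat3 and Spop) and 5 lower, beside 16.2% and 24.8% of all genes. Among the lower was Ifngr1, a chain of the interferon gamma receptor, at 8.78 against 72.4 CPM (8.24-fold, 6.54 to 10.5). Ifngr1 passed the filter through ZOL alone and so had to differ in some comparison. The median of the 14 was -0.48 beside -0.02 for all genes, and Cd274 itself stood at -0.37.

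Of the partners and modifiers of CD47, 5 of 7 passed the filter. In ZOL against PBS 3 of them were at least 2-fold higher and none lower (median 1.53), beside 49.2% and 29.4% of all genes. With RPKM as deposited 2 were higher and 1 lower (median 0.23). Calr, the calreticulin gene whose product at the surface prompts engulfment, stood at 203, 596 and 728 CPM. Thbs1, whose thrombospondin binds CD47, had 4 reads in PBS and stood at 158 and 149 CPM in the treated pools. Thbs2 was 4.52-fold higher in ZOL+Ang2 than in ZOL (4.26 to 4.79), at 445 against 98.5 CPM. Cd47 relative to Calr, in RPKM, was 0.301 in PBS (0.255 to 0.354), 0.222 in ZOL (0.214 to 0.230) and 0.230 in ZOL+Ang2 (0.220 to 0.240), with overlapping intervals in the treated pools.

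In the handling of nucleotides and adenosine, 11 of 15 genes passed the filter and moved in both directions. In ZOL against PBS 5 were higher and 4 lower, beside 49.2% and 29.4% of all genes, and the sign of the median (0.29) changed with the scaling. In ZOL+Ang2 against ZOL 6 were higher and 2 lower, beside 16.2% and 24.8% of all genes, with a median of 1.15 that was above 1 under the 5 scalings. P2rx4, an ATP-gated channel, stood at 34.4, 4.08 and 121 CPM. Alpl, a phosphatase that can also form adenosine, stood at 0, 22.8 and 116 CPM. Adk, the kinase that removes adenosine, stood at 2.69, 80.2 and 44.2 CPM. The transporter Slc29a1 was the most abundant, at 107, 132 and 179 CPM, within 2-fold in each comparison.

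The arginine list held genes that were lower in ZOL+Ang2 than in ZOL and none that was 2-fold higher. Of 11 genes 9 passed the filter, of which ZOL held 6 at a level at least 2-fold above PBS and 1 at least 2-fold below it (median 2.68), beside 49.2% and 29.4% of all genes. Between the treated libraries none was higher and 5 were lower, a median of -1.38, beside 16.2% and 24.8% of all genes, and these latter counts were the same under the 5 scalings. Asl, which releases arginine, stood at 54.7 CPM in ZOL and had 0 reads in ZOL+Ang2. Oat, which consumes the ornithine that arginase makes, stood at 130 and 22.5 CPM (5.79-fold lower), and Sms, spermine synthase, at 91.5 and 15.1. The other 4 stayed within 2-fold. Odc1, the entry to polyamine synthesis, stood at 166 and 203 CPM and Srm, spermidine synthase, at 119.5 and 199 CPM, both higher in ZOL+Ang2 under the 5 scalings.

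Of the other suppressive enzymes, 4 of 9 passed the filter. Ptgs2 (COX-2), which makes prostaglandins, had 1 read in PBS, stood at 131 CPM in ZOL and had 2 reads in ZOL+Ang2. It was 573-fold lower in ZOL+Ang2 than in ZOL, with a wide interval (158 to 4731). Ptges, which acts after it, was alike in the treated pools at 115 and 114 CPM. Tdo2, a tryptophan-degrading enzyme, stood at 17.2, 1.91 and 24.2 CPM and Hmox1, a haem-degrading enzyme, at 98.5, 43.8 and 100.5. Both were at least 2-fold lower in ZOL than in PBS and at least 2-fold higher in ZOL+Ang2 than in ZOL. Of the 4 enzymes, 2 were thus higher and 1 lower in ZOL+Ang2 against ZOL, beside 16.2% and 24.8% of all genes. In ZOL against PBS 2 were higher and 2 lower, beside 49.2% and 29.4% of all genes.

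**Figure D5:**
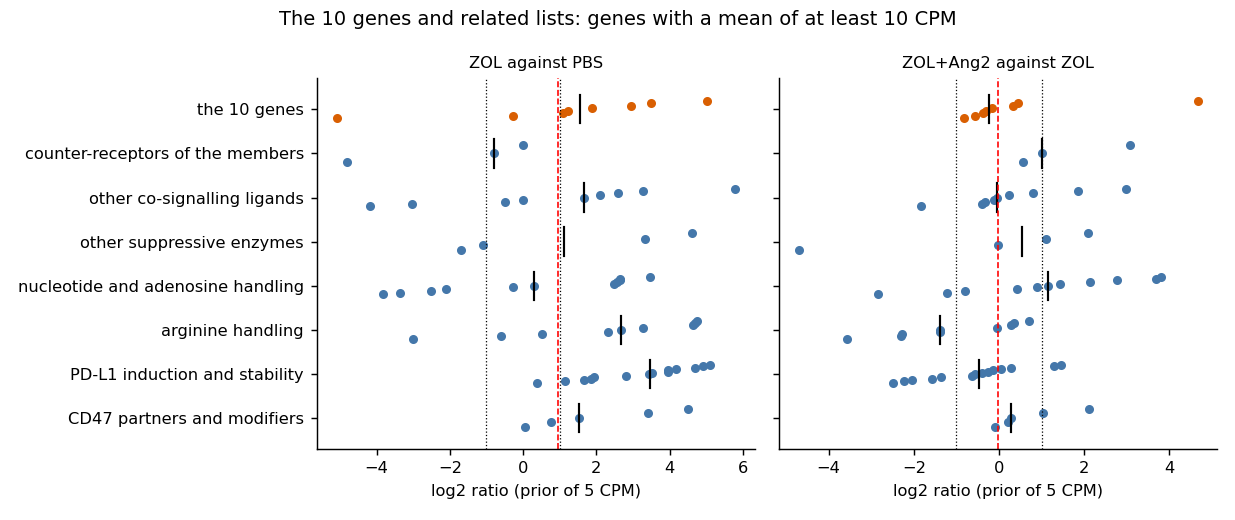
log2 ratio (CPM plus a prior of 5 CPM) of each gene whose mean was 10 CPM or more, for the 10 genes and 7 related lists, in ZOL against PBS and ZOL+Ang2 against ZOL. Points are genes, black bars list medians, red dashed lines the median of all genes (0.94 and -0.02) and dotted lines 2-fold. The list on PD-L1 induction and stability lay to the right in ZOL against PBS (median 3.48), and the median of the arginine list lay to the left in ZOL+Ang2 against ZOL (-1.38).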

How the data were processed

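RNA from 3 pools of dural cells was compared, 1 library per treatment label. The authors deposited RPKM per gene; fastp, HISAT2 2.2.1, featureCounts 2.0.6 and the mm10 genome are named, without order, in the submitters' processing notes. The sources used here do not give the annotation release or the use of strand. Each RPKM times the exon length of the gene (GENCODE M21) was divided by 1 step per library, and 96.9%, 96.4% and 96.2% of values in PBS, ZOL and ZOL+Ang2 then lay within 0.01 of a whole number. These recovered reads come to 1.50, 0.701 and 0.785 times the totals the steps imply, so they may not equal the authors' counts. RPKM and FPKM cannot be told apart here. In each file 37 genes had no exon length and were left out.

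CPM were computed with TMM library factors (1.11, 0.946 and 0.953; trims of 30% and 5%) in Python 3.11.15 with numpy 2.4.6, scipy 1.17.1 and pandas 2.3.3, after a check on simulated reads. Genes whose mean was 10 CPM or more were compared by the log2 ratio of CPM plus 5, with 2-fold as the call, which understates differences of low genes. Folds are ratios of CPM without a prior, with exact 95% binomial intervals, or bounds against 3 reads per library where a gene had 0. The reads carry no molecular identifiers, so intervals and floors cover counting error only and take reads as independent. Of the low recovered values, 61.2%, 53.3% and 51.1% were even in PBS, ZOL and ZOL+Ang2, and the reason was not tested. Where reads were not independent, the intervals and floors are too narrow. The design had been written for reads recovered from RPKM.

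The 10 genes, the lists and the rule for naming were chosen with earlier results of these data known. Named were the 10 genes, the gate genes, in each related list the 3 most abundant genes and the highest and lowest past 2-fold per comparison, the 2 most abundant of each cell list, and the listed gene of nearest profile for each. The promoters shown, the level bands used to count zeros, the genes overlapping a listed gene, Camp, Cdh5, Krt5 and the markers named as being at 0 were chosen after values were seen. Alternatives covered scaling, thinning, the prior and the filter. Results for 1 marker gene and 1 motif are not reported here.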

Additional observations from a re-analysis of the deposited data

How the results depend on the processing

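Leaving out a replicate was not possible with 1 library per group. No paired analysis was possible because the groups share only 1 replicate number. The count of genes at least 2-fold higher in ZOL than in PBS was 6 and came to 3 with RPKM as deposited, where Cd47 and Entpd1 took the opposite sign (log2 -0.20 and -0.029). The count 2-fold lower in that comparison was 1 and came to 2 with a prior of 1 CPM, which added Arg1. In ZOL+Ang2 against ZOL the count of lower genes was 0 and came to 1 with TMM without the 5 gene classes, with a filter of 1 CPM and with no filter (Pvr each time), with a prior of 1 CPM (Vsir), and with PBS left out of the filter and the scaling (Pvr), a setting chosen after seeing the data. With a filter of 50 CPM, the count of higher genes in that comparison was 0 against 1, and in ZOL+Ang2 against PBS 3 against 6. The other 47 counts stayed within 1.5 times of the main value. Of the log2 ratios of single genes under alternatives, 68 stayed within the counting interval and 91 did not, of which 7 changed sign: the 2 above, and 5 of ratios within 2-fold. The latter were Entpd1 in ZOL+Ang2 against PBS (0.40, against -0.23 with median-of-ratios factors, -0.67 with RPKM as deposited and -0.11 after thinning) and Lgals9 in ZOL+Ang2 against ZOL (-0.17, against 0.02 and 0.002 with the first 2 of these). Over all genes in ZOL against PBS, 62.6% of the calls were higher, but 47.3% with median-of-ratios factors, 39.9% with RPKM as deposited, 51.2% after thinning and 78.7% with a filter of 50 CPM, and the median of all genes shifted by -1.11 and -1.77 log2 with the first 2 of these. The share was 57.1% in ZOL+Ang2 against PBS, and 39.0% with RPKM as deposited. Counts over all genes moved by more than 1.5 times with the filter. In ZOL against PBS 5385 genes were higher and 3221 lower, against 7381 and 6403 with a filter of 1 CPM or none and 2040 and 551 with 50 CPM. The counts were 1770 and 2718 in ZOL+Ang2 against ZOL, against 2685 and 4520, and 512 and 673. In ZOL+Ang2 against PBS they were 4831 and 3625, against 6003 and 6843, and 2002 and 637. With RPKM as deposited the lower genes numbered 5492 in ZOL and 5582 in ZOL+Ang2, each against PBS. PBS had the fewest reads, and its zeros and folds are the least precise.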
